A study of Mus musculus with 8 samples.

Results

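The genes described here carry fatty acids into the hepatocyte and hold them there. Cd36 (a fatty acid translocase of the plasma membrane), Slc27a2 and Slc27a4 (fatty acid transport proteins that also activate very long chain fatty acids to their CoA esters) stand for uptake. Fabp1, Fabp2 and Fabp4 (the liver, intestinal and adipocyte fatty acid binding proteins) stand for transport within the cell. Lpl and Lipc (lipoprotein lipase and hepatic lipase) release fatty acids from lipoproteins, and Pparg encodes PPAR gamma, a nuclear receptor that fatty acids activate. The 9 genes were taken by symbol out of 22374 genes named on the array, and were covered by 10 of its 55681 different probes.

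Livers of 4 NZO and 4 B6 mice were each hybridised to 1 single-colour Agilent array. NZO mice (NZO/HiBomDife) are an obese, diabetes-susceptible inbred strain, and B6 mice (C57BL/6) are lean and diabetes-resistant. All 8 animals were males of 6 weeks that received a diet with 45% fat, so the strain was the only labelled difference between the groups and no mice on another diet were included here. A level is the log2 of the background-corrected spot signal minus the 75th percentile of all probes on that array, so that 0 is the signal of a probe at that percentile. Probes differ in how well they bind, so a higher level of 1 probe than of another does not show more transcript. The 75th percentile lay at 119 to 142 signal units on the NZO arrays and at 136 to 159 on the B6 arrays, and no spot was saturated.

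Dietary and circulating fatty acids reach the liver bound to albumin or inside lipoproteins. They cross the membrane with the help of transport proteins, are activated to CoA esters and are carried by binding proteins to oxidation, storage or secretion. Fabp1 is the main binding protein of hepatocytes, while Fabp2 is best known from the small intestine and Fabp4 and Lpl from adipose tissue and macrophages. In liver, raised Pparg and Cd36 are known from steatosis.

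The labelled tissue was checked against marker genes. The hepatocyte genes Alb, Ttr, Apoa1, Cps1 and Tat were well above background on all 8 arrays, and 0 of their 5 probes passed the test between strains. The adipocyte genes Adipoq, Plin1 and Lep, and the enterocyte genes Vil1, Cdx1, Lct and Alpi, were not well above background on any of the 8 arrays, although Fabp4 and Fabp2 were. Of the other adipocyte genes, Car3, which hepatocytes also express, was above background on all 8 arrays and stood 0.47 higher in NZO (adjusted p = 0.0133 in limma, below the fold threshold). Cfd was above background in 1 NZO and 3 B6 mice, and 1 of 2 Retn probes in 2 NZO mice and 1 B6 mouse. Of the other enterocyte genes, Apob, also a hepatocyte gene, was above background on all 8 arrays and Cdx2 in 1 NZO mouse.

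None of the uptake, binding or lipase genes differed between NZO and B6 liver by the test across all probes. The call required a Benjamini-Hochberg adjusted p of at most 0.05 from limma together with a log2 fold change of at least 0.7 in either direction. Of the 10 member probes 0 were higher and 0 were lower in NZO, with every probe well above background on all 8 arrays. Among all 27639 probes tested, 4.33% were called higher in NZO (1198 probes) and 5.28% lower (1460 probes). With the unadjusted p in place of the adjusted p, these shares were 5.16% and 7.08%, and again 0 member probes were called in either direction. The unadjusted p was at most 0.05 for 1 member probe, that of Fabp1. The median log2 fold change was -0.03 over the member probes and 0.01 over all probes tested, and the median size without sign was 0.24 for both.

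The precision differed among the members. For 8 of the 10 probes the 95% interval of the log2 fold change lay wholly between -0.7 and 0.7, which was the case for 53.2% of all probes tested. The intervals of Pparg and of 1 of the Lpl probes reached below -0.7, so with 4 mice per strain a decrease of that size in these lay within the error. Between mice of a strain, the SD of the member probes ranged from 0.16 to 0.66 log2 units in NZO and from 0.07 to 0.39 in B6.

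**Figure D1:**
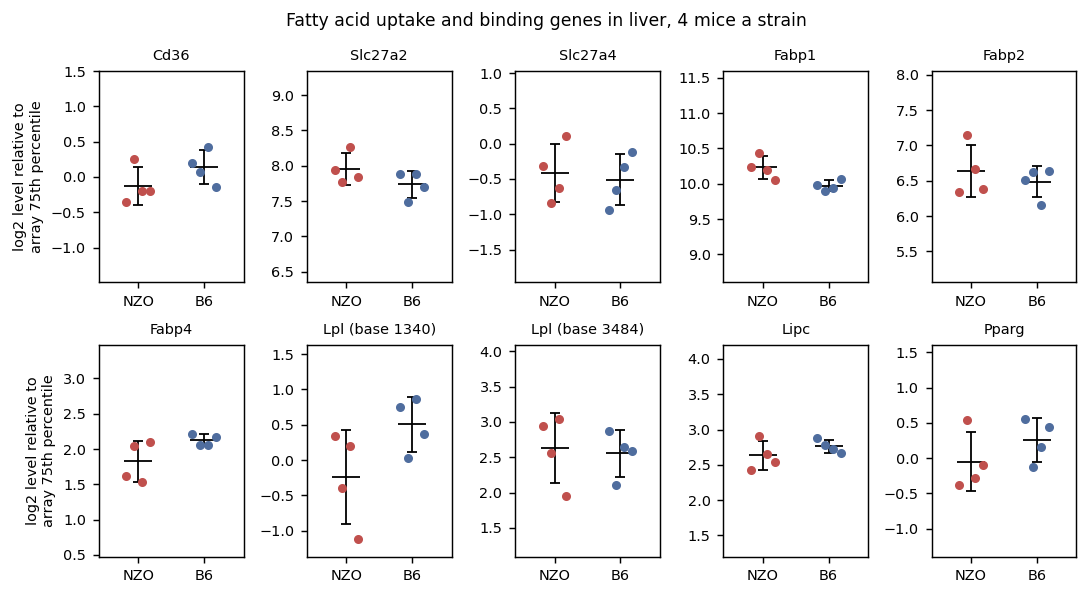
Level of each member probe (log2 relative to the 75th percentile of the array) on the 4 NZO and 4 B6 arrays, with the mean and SD as a bar. Each panel spans 3 log2 units, and the points of the strains overlap in all 10 panels.

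Among the uptake genes, Cd36 stood at -0.36, 0.26, -0.20 and -0.20 in NZO mice 007, 003, 009 and 011. In B6 mice 011, 010, 015 and 009 it stood at 0.20, 0.07, 0.43 and -0.14. Mouse 003 was the only NZO animal within the upper part of the B6 range, and the other 3 lay below all B6 values. The log2 fold change of NZO against B6 was -0.27 ± 0.17 (SE, n = 4 and 4), a ratio of 0.831 with a 95% interval from 0.634 to 1.09 and an adjusted p of 0.355 in limma. Cd36 was measured by a probe on mm9 chr5:17288600-17288659, minus strand, at base 2390 of its transcript.

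Slc27a2, which is abundant in liver peroxisomes and endoplasmic reticulum, stood at 7.94, 7.77, 8.27 and 7.84 in the NZO mice. The B6 levels were 7.89, 7.48, 7.88 and 7.71, so the strains overlapped and the difference was 0.22 ± 0.15 (SE) with an adjusted p of 0.388 in limma. Slc27a4, better known from the intestine, stood at -0.32, -0.84, -0.62 and 0.11 in NZO and at -0.94, -0.66, -0.33 and -0.12 in B6. The spread within each strain, with SDs of 0.41 and 0.36, was larger than the difference of 0.10 ± 0.25 (SE, adjusted p of 0.837 in limma).

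Fabp1 had the lowest p among the members, at a change well below the fold threshold. Its levels were 10.24, 10.44, 10.20 and 10.05 in the NZO mice and 9.98, 9.90, 9.94 and 10.07 in the B6 mice. NZO mouse 011 was just below B6 mouse 009, and the other 3 NZO mice lay above all B6 mice. The difference was 0.26 ± 0.11 (SE), a ratio of 1.20 with a 95% interval from 1.01 to 1.42, with an unadjusted p of 0.0423 and an adjusted p of 0.162 in limma. The size of the change depended on the processing. It was 0.09 under quantile normalization, 0.04 in the deposited table, 0.10 with the replicate block and 0.52 with slide as a fixed term. Fabp1 was called in none of these. The probe lies on mm9 chr6:71154906-71154965.

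The promoter of Fabp1 is shown because it holds the kind of element that PPAR and RXR receptors bind, and Pparg is among the members. The searched motif was DR1, the letters AGGNCA followed by 1 free base and AGGNCA again, on both strands. From 250 bases before to 50 after the start site it was found in 0.451% of 27025 genes with a listed promoter, and among the members in Fabp1 only, out of 7 members listed (RefSeq, GRCm38.p6). The match starts 67 bases before the start of Fabp1 and reads on the minus strand. The capitals mark it in the stretch at GRCm38.p6 chr6:71199767-71199869, plus strand:
Fabp1: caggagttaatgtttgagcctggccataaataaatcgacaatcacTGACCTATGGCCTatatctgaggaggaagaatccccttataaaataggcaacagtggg
A match describes the letters and does not show that a factor was bound in these livers. The listed promoters of Cd36, Slc27a2, Slc27a4, Fabp2, Pparg and Lipc did not hold these letters.

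Fabp2 was detected in every liver, at 6.35, 7.14, 6.66 and 6.38 in NZO and at 6.51, 6.62, 6.16 and 6.64 in B6. NZO mouse 003 was the highest of the 8, and without this mouse the difference turned from 0.15 to -0.02, with an adjusted p of 0.943 in limma. Fabp4 stood at 1.62, 2.05, 1.53 and 2.10 in NZO, where a lower and a higher pair of mice were apart, and within 2.05 to 2.21 in all 4 B6 mice. The log2 fold change of Fabp4 was -0.30 ± 0.15 (SE), with an adjusted p of 0.241 in limma.

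Lipc, which hydrolyses lipids of remnants and high density lipoprotein, stood at 2.43, 2.91, 2.66 and 2.54 in NZO and at 2.88, 2.78, 2.72 and 2.67 in B6. The strains overlapped, and the difference of -0.13 ± 0.12 (SE) had an adjusted p of 0.539 in limma. The Lipc probe is the only member probe whose 60 bases span an intron, from 70660699 to 70664375 on chromosome 9 of mm9, minus strand.

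Pparg was printed on 10 spots per array, which were averaged. It stood at -0.37, 0.55, -0.28 and -0.10 in the NZO mice and at 0.56, -0.13, 0.16 and 0.45 in the B6 mice. Mouse 003 was again the highest NZO animal, nearly level with the highest B6 mouse. The difference was -0.31 ± 0.23 (SE), with a 95% interval from -0.85 to 0.23 and an adjusted p of 0.437 in limma. Within scan day 1, with 3 NZO and 2 B6 arrays, the difference was 0.04 (adjusted p = 0.95 in limma). Within scan day 2 it was -0.88, which sets NZO mouse 007 alone against 2 B6 mice (adjusted p = 0.088 in limma, with the single mouse assumed to vary like the others). NZO mouse 003 had the highest NZO level for Cd36, Pparg, Fabp1, Fabp2 and Lipc and the lowest for Slc27a2 and Slc27a4. On its array 50.4% of spots were well above background, the lowest share of the 8 arrays, and the part of this in the levels was not tested.

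**Figure D2:**
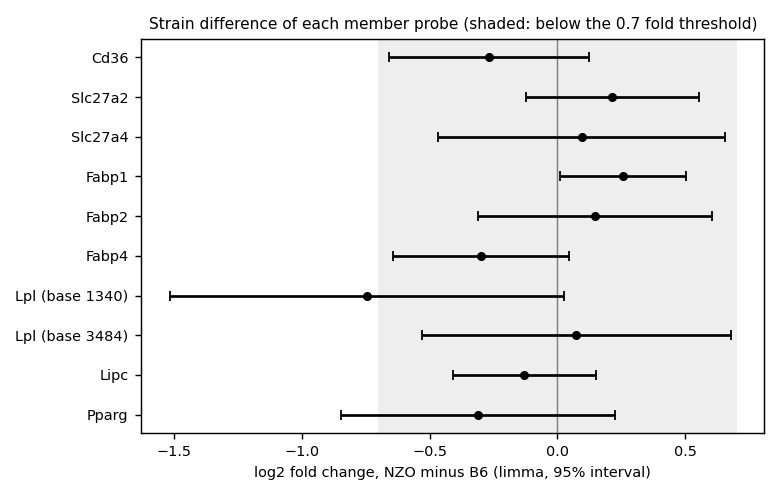
Log2 fold change of NZO against B6 for each member probe with its 95% interval from limma (4 mice a strain). The shaded band marks changes smaller than 0.7, and the intervals of Pparg and of the Lpl probe at base 1340 reach out of it.

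Lpl was the only member with more than 1 probe, and its probes differed. Both read transcript NM_008509 on the plus strand of mm9 chromosome 8. The dimmer probe, at base 1340, lies in the coding sequence (71425050 to 71425109), and the brighter, at base 3484, lies in the 3′ untranslated part (71430267 to 71430326). The coding probe is shown because the difference between the strains lay mainly in it, in lower case throughout and as the array carries it, 5′ to 3′:
Lpl, base 1340: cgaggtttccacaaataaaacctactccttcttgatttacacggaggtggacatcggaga
At this probe the NZO mice 007, 003, 009 and 011 stood at 0.34, -0.40, 0.20 and -1.11, and the B6 mice 011, 010, 015 and 009 at 0.75, 0.02, 0.87 and 0.37. The log2 fold change was -0.75 ± 0.34 (SE), with a 95% interval from -1.52 to 0.02 and an adjusted p of 0.193 in limma. Without NZO mouse 011, the lowest of all, it was -0.46 with an adjusted p of 0.337 in limma. At the other probe the NZO mice stood at 2.95, 2.56, 3.04 and 1.96 and the B6 mice at 2.88, 2.10, 2.65 and 2.59, a difference of 0.07 ± 0.26 (SE, adjusted p of 0.886 in limma).

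The gap between the Lpl probes on an array, which does not depend on the 75th percentile of that array, was examined after these values had been seen. Base 3484 minus base 1340 was 2.61, 2.96, 2.84 and 3.07 in the NZO mice and 2.12, 2.08, 1.78 and 2.22 in the B6 mice. The groups did not overlap. The gap was 0.82 log2 units wider in NZO (2.87 ± 0.20 against 2.05 ± 0.19, SD, n = 4 each). Since the comparison was prompted by these values, no test is given. The gap was wider within slide 1 (1.03), within scan day 1 (1.03) and within scan day 2 (0.44). Such gaps were not rare on this array. Among 3086 genes with exactly 2 tested probes, the gap differed between strains without overlap in 16.9% and by at least as much as for Lpl in 9.47%.

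**Figure D3:**
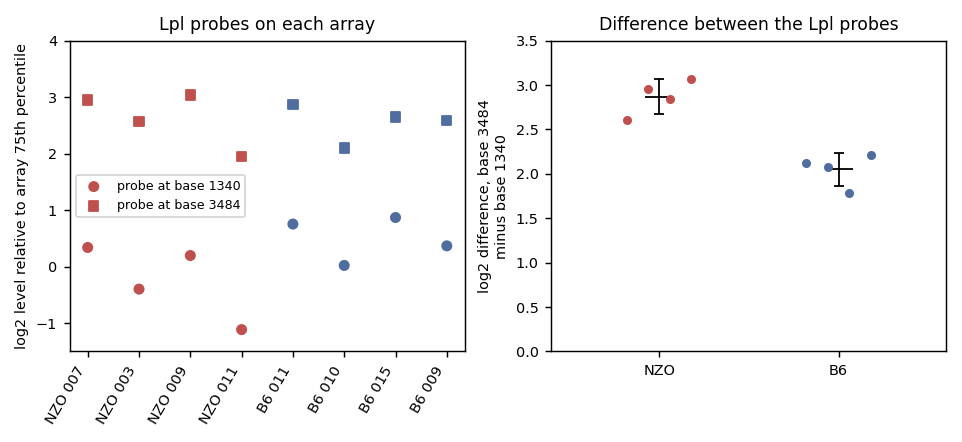
Left, level of the Lpl probes on each array (circles, base 1340, and squares, base 3484, log2 relative to the 75th percentile of the array, NZO red and B6 blue). Right, their difference on each array with the mean and SD per strain. All 4 NZO arrays lie at 2.61 or above and all B6 arrays at 2.22 or below.

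Markers of other liver cells were read beside these genes, since macrophages also express Cd36, Fabp4 and Lpl. Fewer cells of a type and less RNA per cell cannot be told apart in whole liver. Of 11 probes for the 7 macrophage genes, 3 were lower in NZO and 0 higher, beside 5.28% and 4.33% of all probes tested. The log2 fold change was below 0 for 10 of the 11. Clec4f, a lectin of Kupffer cells, fell by 1.13 on the log2 scale (adjusted p = 8.5e-04 in limma), and Marco, a scavenger receptor, fell by 1.83 (adjusted p = 0.0114 in limma, 0.0593 in the methods' t-test), as did 1 of 3 Csf1r probes, by 0.80 (adjusted p = 0.00228 in limma). All 3 calls were lost with slide as a fixed term and within scan day 2, each of which compared 1 NZO mouse with 2 B6 mice. Over the 22 alternatives the changes ranged from -1.29 to -1.03 for Clec4f and from -2.46 to -0.87 for Marco. For this Csf1r probe they ranged from -0.97 to -0.62. The summed level of the list, in units of each array's 75th percentile and over the brightest probe of each gene (the brightest of all being one of Csf1r), was 93.1, 90.1, 72.5 and 77.3 in the NZO mice. In the B6 mice it was 138, 121, 179 and 109, above every NZO value. How often sums over other genes separate the strains was not examined. No macrophage gene was at background on any array, and the part of this list in the levels of Cd36, Fabp4 and Lpl was not tested.

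Of the 6 stellate cell probes 1 was lower in NZO (Pdgfrb, -1.0, adjusted p = 3.57e-04 in limma, but -0.53 and not called with normexp) and 0 higher. Among 9 endothelial probes 0 were called. These counts and those of the red cells stand beside 4.33% of all probes tested called higher in NZO and 5.28% lower. Of the 4 red cell probes 2 were higher in NZO, Alas2 by 0.90 (adjusted p = 0.0023 in limma) and Hba-a1 by 1.0 (adjusted p = 0.0183 in limma). The Hba-a1 call was lost without B6 mouse 010 (adjusted p = 0.0566) or 015 (adjusted p = 0.0552) and in 8 of the other alternatives, quantile normalization and the methods' t-test among them. The Alas2 call was lost in the deposited table (0.66), with slide as a fixed term, within either scan day and with the replicate block. Over the 22 alternatives the change ranged from 0.66 to 1.06 for Alas2 and from 0.79 to 1.20 for Hba-a1. The Pdgfrb call was also lost with slide as a fixed term, within scan day 2 and with the replicate block. Its change ranged from -1.15 to -0.53 over the 22 alternatives, and was smallest with normexp. Skeletal muscle genes, of a tissue that also uses Lpl, summed to 16.4 in NZO mouse 007 and to 5.49 in B6 mouse 010, against 0.186 to 1.39 on the other 6 arrays, with the brightest probe that of Myh4. Without NZO mouse 007 the Lpl differences were -0.94 at base 1340 and -0.03 at base 3484, neither called.

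**Figure D4:**
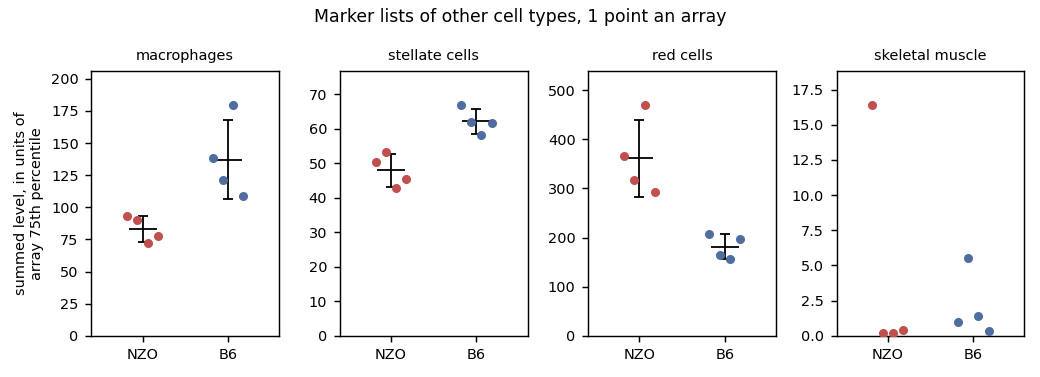
Summed level of 4 marker lists on each array, in units of the array's 75th percentile on a linear axis, 1 point per array, with the mean and SD except for skeletal muscle. Macrophage and stellate cell sums lie lower and red cell sums higher in all 4 NZO mice, and the muscle sum is highest in 1 NZO mouse at 16.4. The brightest probe, that of Dcn for stellate cells and of Hba-a1 for red cells, weighs most in its sum.

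The other genes of fatty acid handling were taken from 5 lists by role, with 57 genes and 85 probes, of which 75 were tested. Of these 5 were higher and 4 lower in NZO, from 7 genes, beside 4.33% and 5.28% of all probes tested, so these counts were near the background, and the median log2 fold change was 0.10. Of these 9 calls 7 were kept when only probes above background on all 8 arrays were tested. In the uptake and activation list 0 of 11 tested probes were called. Acsl1, the main acyl-CoA synthetase of liver, stood 0.51 ± 0.15 (SE) higher at its brightest probe, with an adjusted p of 0.0658 in limma. Slc27a5, a fatty acid transport protein of liver that also activates bile acids, differed by 0.15 at its brightest probe, with an adjusted p of 0.339 in limma.

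Among the binding proteins 2 of 12 tested probes were higher and 2 lower. Fabp7, the brain type binding protein, stood at 1.27, 1.38, 1.17 and 1.11 in NZO and at 0.16, 0.14, -0.33 and -0.25 in B6. It rose by 1.30 on the log2 scale (adjusted p = 5.76e-04 in limma) with no overlap between strains. This call was lost with slide as a fixed term (1.47) and within scan day 2 (1.31). Each of these settings compared 1 NZO mouse with 2 B6 mice. Fabp12, a less studied member of the family, rose by 2.0 (adjusted p = 0.0094 in limma) at 1 probe, while its other probe was well above background on 1 array. The change was 1.16 with normexp background correction. The call was lost at a change of 2.0 in the methods' t-test (adjusted p = 0.0735) and of 1.97 within scan day 1 (adjusted p = 0.119 in limma). It was also lost with slide as a fixed term (1.81) and within scan day 2 (2.27), each with 1 NZO mouse against 2 B6 mice. Acbd4, which binds acyl-CoA, fell by 0.95 (adjusted p = 9.22e-04 in limma) and by 0.91 (adjusted p = 4.03e-04 in limma) at its probes. Both calls were lost with slide as a fixed term (-0.71 and -0.77) and within scan day 2 (-1.15 and -0.97). Both settings again rest on 1 NZO mouse. Scp2 and Dbi, abundant carriers of sterols and acyl-CoA, differed by 0.35 and -0.18 at their brightest probes and were not called.

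Among the partners of the lipases and the receptors that take up lipoproteins, 2 of 18 tested probes were higher and 1 lower. The higher probes were both of Vldlr, the very low density lipoprotein receptor. At its brighter probe it stood at -0.31, 0.41, 0.59 and 0.86 in NZO and between -2.71 and -2.31 in all B6 mice. The log2 fold change was 2.94 ± 0.24 (SE), with an adjusted p of 1.1e-04 in limma. With normexp background correction the change was 1.63, and it was 1.90 in the deposited table. The dimmer probe gave 3.17, but 0.73 with normexp and 0.91 in the deposited table. It was well above background in only 1 of the 4 B6 mice. It therefore entered the test through the NZO arrays alone, and its call adds no separate support. The lower probe was 1 of 3 for Lrp1, at -0.89 (adjusted p = 0.0392 in limma), on which 1 NZO array was at background. The brightest Lrp1 probe gave -0.06 and the remaining one -0.55 (adjusted p = 0.163 in limma), and neither was called. The Lrp1 call was lost without NZO mouse 003 or 011 and without any of the 4 B6 mice in turn, with adjusted p from 0.0499 to 0.107 and, without mouse 011, a change of -0.68. It was also lost with normexp, where the change was -0.12, in the deposited table (-0.51) and in the methods' t-test (adjusted p = 0.122). Further losses came with slide as a fixed term (-0.71), within scan day 1 (-0.81), within scan day 2 (-0.72), with the replicate block (-1.29) and without the dim-probe filter (-0.89). Apoc3 and Apoc2, the inhibitor and the activator of Lpl, differed by 0.26 and 0.20 and were not called.

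Among the partners of PPAR receptors 1 of 24 tested probes was called. This was the brightest of 4 probes for Med1, a Mediator subunit that binds nuclear receptors. It fell by 1.50 on the log2 scale, from a mean of 6.08 in B6 to 4.58 in NZO (adjusted p = 7.87e-05 in limma), and the other 3 probes gave 0.32, -0.31 and 0.07 and were not called. The Med1 call was lost within scan day 2 and with the replicate block, while the change ranged from -1.72 to -1.34 over the 22 alternatives. Ppara, the receptor that drives fatty acid oxidation in liver, and Nr1h3 differed by 0.06 and 0.10 at their brightest probes. The other Ppara probes gave 0.39 and 0.23 and the other Nr1h3 probe 0.15, and none of these was called. Of 10 tested probes for known PPAR gamma targets 1 was higher, that of Fgf21. The log2 fold change was positive for 8 of the 10 and negative for 2, with a median of 0.41, beside 0.01 over all probes tested. Its interval lay wholly inside the fold threshold for only 1 of the 10, beside 53.2% of all probes tested. The uncalled probes of this list therefore do not show that changes of that size were absent. Fgf21, a hormone secreted by the liver, stood at 0.65, 0.20, 0.84 and -1.72 in NZO and at -1.33, -2.08, -3.53 and -2.88 in B6, overlapping through NZO mouse 011. It rose by 2.45 on the log2 scale (adjusted p = 0.0403 in limma). This call was lost without NZO mouse 007, 003 or 009 and without B6 mouse 010, 015 or 009, with adjusted p from 0.0772 to 0.105 in limma. It was also lost in the methods' t-test (adjusted p = 0.116), with slide as a fixed term, within either scan day, with the replicate block and without the dim-probe filter. Over the 22 alternatives the change ranged from 1.35, with normexp, to 3.02. Plin2, the lipid droplet coat protein, and G0s2, the inhibitor of adipose triglyceride lipase, differed by 0.40 and 0.70 and were not called.

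**Figure D5:**
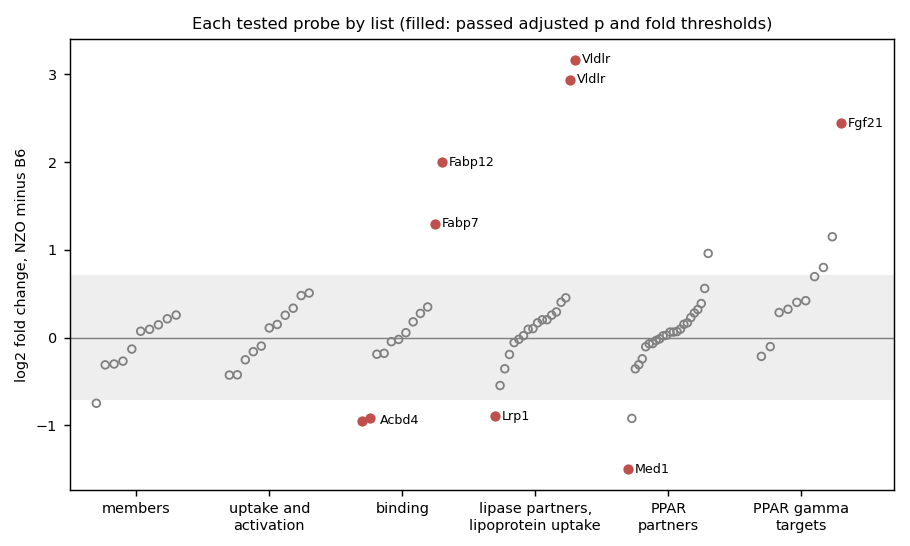
Log2 fold change of NZO against B6 for every tested probe of the member genes and of 5 related lists (filled points passed the adjusted p and the fold threshold). The member probes range from -0.75 to 0.26 with 0 filled, and the brighter Vldlr probe lies at 2.94. The dimmer Vldlr probe, drawn at 3.17, was above background in only 1 of the 4 B6 mice.

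As genes of like pattern, the highest Pearson correlations with Cd36 across the 8 arrays were those of Pygb (0.989), Hn1 (0.965) and Ms4a6d (0.956). For Pparg they were those of Jkamp (0.963), 2610001J05Rik (0.959) and Styx (0.958). These are the highest of 14297 genes compared at 1 probe each, they share the arrays and their scaling, and they describe these 8 livers only.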

How the data were processed

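The authors deposited the scanner output of 8 arrays, 1 per mouse, and a table for all arrays. Spot intensity came, per the file headers, from Feature Extraction 11.0.1.1 (version 9.1 in the submitters' processing notes), and the probe coordinates are those of mm9. The deposited table held the raw median intensity of 59305 of 59305 spots on each array (tolerance 0.01) and was used only as an alternative. From the processed intensity, log2 was taken without a pseudocount, each array's 75th percentile was subtracted, outlier spots were left out and spots of a probe were averaged. Probes that were well above background in all 4 mice of either strain were tested with limma 3.58.1 (R 4.3.3) over the 8 arrays and no covariates. The number of arrays limits the precision.

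The members and lists were chosen with earlier results of these data known. Named genes were all members, every called gene of the lists and up to 4 uncalled genes per list, the brightest first (here 2), an order of signal used only to choose them. Genes were matched by symbol or synonym, so Adgre1 was read from Emr1. Slides and scan days were numbered: slides 1 to 5, of which only slide 1 held both strains (1 NZO and 2 B6), and scan day 1 with 3 NZO and 2 B6 arrays, scan day 2 with 1 NZO and 2 B6. Alternatives changed the background correction, normalization, dim-probe filter, test, batch terms and samples. The scripts were tested on simulated data.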

Additional observations from a re-analysis of the deposited data

Results flagged for a closer look

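Of 72 groups of 4 arrays examined for an array apart from the rest, 1 was found. Chance gives about 1 in 20 of such groups, so this is no more than chance gives. Apoc3, an inhibitor of Lpl, stood at 10.27 at its brighter probe in NZO mouse 003, and the next NZO mouse stood at 10.11. This gap took 0.886 of the range of the NZO group, over the 95% critical value of Dixon's test. The same mouse had the highest NZO level of Fabp1 and Fabp2.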

How the results depend on the processing

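No member probe was called in either direction under any of the 22 alternatives run. The fold changes of Cd36, Pparg, Fabp2, Slc27a4, Lipc and Lpl at base 3484 changed sign under some. So did those of 5 uncalled genes of the related lists, each read at its brightest probe. With slide as a fixed term Pparg gave 0.53, Lipc 0.16, Cd36 0.0073, Slc27a4 -0.34, Dbi 0.10 and Ppara -0.13. In the deposited table as given, where the median of all probes tested fell to -0.15, Fabp2 gave -0.084, Slc27a4 -0.085, Lpl at base 3484 -0.12, Slc27a5 -0.075, Apoc2 -0.044, Ppara -0.12 and Nr1h3 -0.11. Fabp4 there had an adjusted p of 0.0173 in limma at a change below 0.7. Within scan day 1 Pparg gave 0.042 and Ppara -0.086, within scan day 2 Fabp2 -0.23 and Nr1h3 -0.073, with scan day as a fixed term Ppara -0.0021, and under quantile normalization Ppara -0.048 and Nr1h3 -0.015. Leaving out each mouse in turn, the differences ranged from -0.077 to 0.30 for Lpl at base 3484, from -0.024 to 0.24 for Fabp2, from -0.079 to 0.24 for Slc27a4, from 0.11 to 0.28 for Slc27a2, from -0.22 to -0.062 for Lipc, from -0.39 to -0.17 for Cd36, from -0.51 to -0.20 for Pparg, from 0.19 to 0.32 for Fabp1, from -0.39 to -0.20 for Fabp4, from -0.94 to -0.46 for Lpl at base 1340 and from -0.054 to 0.16 for Ppara. The cause of these shifts was not tested.

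Mouse numbers 009 and 011 occur in both strains but only name animals: their deviations from the strain means correlated at -0.26 and -0.004. With the mouse number as a replicate block, which rests on these 2 numbers, 72 probes were higher and 134 lower, 1 probe of the related lists was called, and Fabp2 and Lpl at base 3484 gave -0.057 and -0.23.

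Counts of called probes (1198 higher, 1460 lower) moved by over 1.5 times to 615 and 583 with normexp, to 575 higher in the deposited table, to 497 higher with slide as a fixed term, to 277 and 554 within scan day 2, to 800 lower within scan day 1, to 963 lower when only probes above background on all 8 arrays were tested, and to 890 lower by the methods' t-test after Benjamini-Hochberg adjustment. At the unadjusted threshold of the methods' t-test, 1291 were higher and 1609 lower, with 0 member probes. The share of calls that were higher, 45.1%, was 28.8% in the deposited table and 33.6% with slide as a fixed term. Leaving out each mouse, the counts ranged from 1071 to 1239 higher and from 1227 to 1461 lower. In the related lists 9 probes were called, 4 with slide as a fixed term and 2 within scan day 2. With slide as a fixed term 3 of the 9 were kept (both Vldlr probes and Med1), beside Ppargc1b, and within scan day 2 only 1 (the brighter Vldlr probe), beside Fabp3, both named after their values were seen. The brighter Vldlr probe was called under all 22 alternatives. Of the 6 called marker probes 0 were kept in either of these settings. The gap between the Lpl probes, added after seeing the data, was 0.53 with normexp, 1.03 within slide 1, 1.03 within scan day 1 and 0.44 within scan day 2, and 0.73 to 0.91 without each mouse. Slide 1 holds 3 arrays and scan day 2 holds 3, which limits these values. Slide and strain cannot be told apart on the other slides.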
